A study of Mus musculus with 4 samples.

Results

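Gene expression in the contralateral cortex, the side of the brain opposite the occluded artery, was compared between *P4htm*-/- and WT mice. One array measured each genotype on this side, 2 of the 4 arrays of the series, and the other 2 arrays measured the ipsilateral cortex of the same mice. All mice were 3 months old, carried the C57BL/6J strain label and had undergone 24 h of permanent occlusion of the left middle cerebral artery (MCAO). The KO contralateral array held cortex of P4H-TM deficient mice and the WT contralateral array held cortex of wild-type mice. Each array carried the pooled RNA of whole cortexes from 4 mice, and the *P4htm*-/- line had been backcrossed to C57BL/6. The contralateral cortex was thus uninjured tissue of operated mice and not tissue of naive mice. One value was taken for each of 18194 genes, from the probe set with the highest mean over the 4 arrays among those that name 1 gene. Of these genes 13207 were above background on at least 1 of the contralateral arrays and are called detected. The words higher and lower are kept for genes whose contralateral values differed by 1.5-fold or more, which is 0.585 on the log2 scale of the deposited values on which all levels and differences are given, unless a value follows directly. With 1 array per genotype no difference has a replicate check, no test could be made, and the variation between mice is unknown. In whole tissue, fewer cells of a type and less RNA per cell cannot be told apart.

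P4H-TM is a prolyl 4-hydroxylase anchored in the membrane of the endoplasmic reticulum, with its catalytic domain facing the lumen. Like the cytosolic HIF prolyl 4-hydroxylases it needs oxygen, iron and 2-oxoglutarate, and it has been linked to the degradation of the alpha subunits of the hypoxia-inducible factors, which switch on genes of glycolysis, angiogenesis and red cell formation. It is expressed in the brain, in neurons and glia, and mice without it have been studied for behavior, kidney and eye phenotypes.

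The 2 genotypes gave closely similar values for most genes on this side. In *P4htm*-/- contralateral cortex 30 of the 13207 detected genes (0.227%) were above WT by this limit and 21 (0.159%) were below WT by it, 0.386% in both directions. Differences of at least 2-fold were seen for 4 genes above and 2 genes below WT. The median difference was -0.01, the middle 95% of the differences lay between -0.31 and 0.32, and 86.0% of the genes differed by no more than 0.2. Another 23 genes were higher and 29 lower by at least 0.5 without reaching the 1.5-fold limit. Probe sets for olfactory, vomeronasal and taste receptors, which cortex is not known for, set the background at 4.79, and 1 of these 81 probe sets was itself past 1.5-fold. Array medians lay between 5.53 and 5.55, and 59.2% to 59.8% of the probe sets were above background.

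Inducible HSP70, a chaperone that refolds damaged proteins, had the largest difference in the uninjured cortex when 1 probe set stood for each gene. *Hspa1b* read 12 in *P4htm*-/- and 10.21 in WT contralateral cortex, a difference of 1.79 or 3.46-fold. On the ipsilateral side it read 12.70 in *P4htm*-/- and 11.84 in WT cortex. Its value in *P4htm*-/- contralateral cortex was therefore above that of the injured WT cortex. *Hspa1a*, the neighboring gene for the same chaperone, read 9.81 in *P4htm*-/- and 8.34 in WT contralateral cortex, a difference of 1.47, and 10.79 in *P4htm*-/- and 10.07 in WT ipsilateral cortex. The order of the 4 arrays differed from that of *Hspa1b* only in that the *P4htm*-/- contralateral value lay below the WT ipsilateral one. The 2 further probe sets of *Hspa1b* both gave 1.77, with 10.40 and 10.95 in *P4htm*-/- against 8.63 and 9.18 in WT contralateral cortex. The genes are near-identical copies, so the signals of their probe sets may not be separable.

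The signals of both genes were higher but may not be separable. Heat shock factor 1 is known to act on inverted GAA units in the promoters of such genes. The 250 bases upstream of both start sites are therefore shown. They were taken from RefSeq with build GRCm38.p6 and are written 5′ to 3′ on the gene's strand, with the 8 bases of GAANNTTC in capitals. *Hspa1b* lies on the minus strand with its window at chr17:34959239-34959488, and *Hspa1a* on the minus strand with its window at chr17:34972157-34972406.
Hspa1b: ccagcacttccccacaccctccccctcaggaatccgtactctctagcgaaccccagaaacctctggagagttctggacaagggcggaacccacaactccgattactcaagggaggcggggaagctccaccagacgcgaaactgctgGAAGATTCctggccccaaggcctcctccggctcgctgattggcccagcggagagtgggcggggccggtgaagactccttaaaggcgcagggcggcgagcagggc
Hspa1a: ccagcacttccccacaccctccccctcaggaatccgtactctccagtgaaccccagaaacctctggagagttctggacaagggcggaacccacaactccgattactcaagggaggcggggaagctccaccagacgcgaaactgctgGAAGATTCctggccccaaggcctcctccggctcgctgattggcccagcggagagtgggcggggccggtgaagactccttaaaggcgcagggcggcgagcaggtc

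The windows were identical at 247 of 250 positions, and each held 1 pair of units, GAANNTTC or TTCNNGAA read on both strands, whose first base lay at -104 from the start site. Such a pair was present in 12.8% of all 32851 RefSeq mouse promoter windows of this length, that is in 4218. A run of 3 units, GAANNTTCNNGAA or TTCNNGAANNTTC, was in neither HSP70 window and in 0.466% of all windows. Among 35 measured chaperone genes with a promoter window, 16 held a pair and 3 held the longer run in at least 1 window. *Hspb1*, *Dnaja1* and *Hsph1* were among those with a pair. These are counts of genes, some of which have several windows, so they cannot be set directly against the shares of windows. A match describes these letters and not a bound site, and the shorter motif was searched after the longer one was not found.

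The rest of the chaperone network was nearly level between the genotypes. Of 41 measured chaperones and cochaperones 40 were detected, 20 were above and 17 below WT, and their median difference was 0.01 against -0.01 for all detected genes. Besides the 2 HSP70 genes none was past 1.5-fold. *Hspb1*, a small heat shock protein that protects actin filaments, came next at 9.95 in *P4htm*-/- and 9.53 in WT contralateral cortex. Its difference of 0.42 was joined by 0.50 on its other detected probe set. *Bag3*, a cochaperone that hands clients of HSP70 to autophagy, was at 0.26, and *Dnajb1*, an HSP40 partner of HSP70 that is also heat inducible, at 0.25. *Hspa8*, the constitutive HSC70, read 13.93 on both contralateral arrays, *Hsp90aa1* differed by 0.07, and *Hspa5*, the HSP70 of the endoplasmic reticulum, by 0.05. Lowest was *Hspb6*, a small heat shock protein of muscle, at -0.37. The 27 genes of the unfolded protein response, all detected, had a median of 0.01, from *Atf3*, a stress-induced transcription factor, at 0.39 to *Xbp1*, whose mRNA is spliced in that response, at -0.26.

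**Figure D1:**
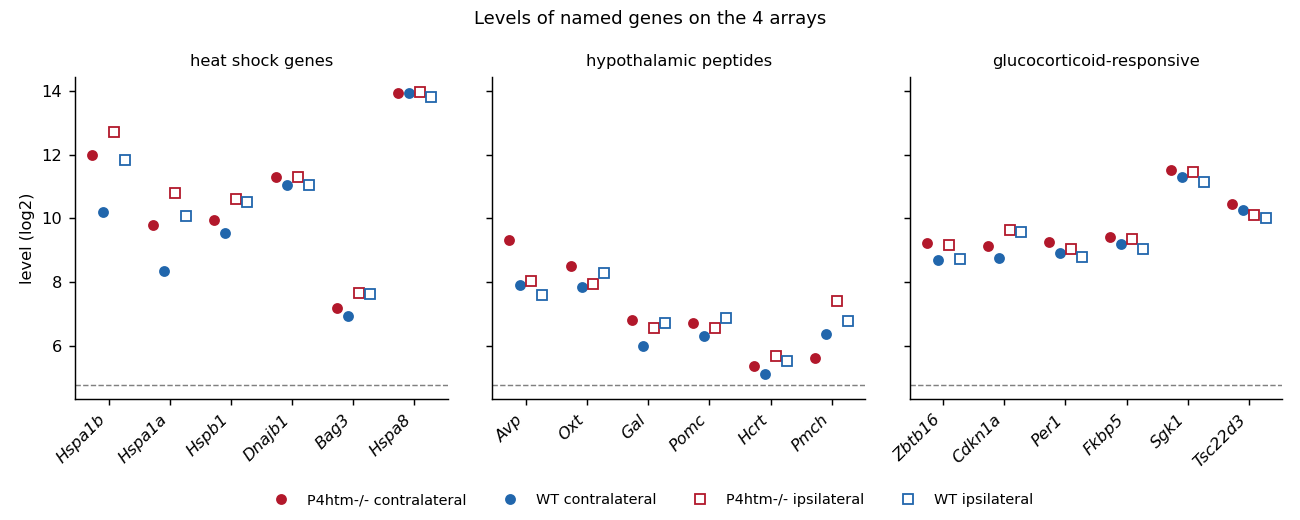
Log2 levels of 6 heat shock genes, 6 hypothalamic peptide genes and 6 glucocorticoid-responsive genes on the 4 arrays, each symbol 1 pooled array, with *P4htm*-/- in red and WT in blue, contralateral as filled circles and ipsilateral as open squares. The dashed line is the background of 4.79. *Hspa1b* reads 12 in *P4htm*-/- and 10.21 in WT contralateral cortex, while *Hspa8* reads 13.93 in both.

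Several genes of hypothalamic neuropeptides were past 1.5-fold, in both directions. *Avp*, which encodes vasopressin, read 9.34 in *P4htm*-/- and 7.92 in WT contralateral cortex, and 8.03 in *P4htm*-/- and 7.59 in WT ipsilateral cortex. The *P4htm*-/- contralateral array stood 1.42 above WT and above both ipsilateral arrays. *Oxt*, the oxytocin gene that neighbors *Avp*, read 8.51 in *P4htm*-/- and 7.86 in WT contralateral cortex, a difference of 0.65, and 7.96 in *P4htm*-/- and 8.30 in WT ipsilateral cortex. *Gal*, which encodes galanin, was 0.80 higher at 6.81 in *P4htm*-/- and 6.01 in WT contralateral cortex, against 6.57 in *P4htm*-/- and 6.72 in WT ipsilateral cortex. Both genes thus had the opposite order on the injured side. *Pmch*, the precursor of melanin-concentrating hormone from the lateral hypothalamus, went the other way, with 5.64 in *P4htm*-/- and 6.39 in WT contralateral cortex and 7.40 in *P4htm*-/- and 6.78 in WT ipsilateral cortex. The difference was -0.75 on the contralateral and 0.62 on the ipsilateral side, past 1.5-fold both times.

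Of 34 hypothalamic neuropeptides and markers 30 were measured and 19 detected, all above background on both contralateral arrays, of which 14 were above and 5 below WT, with a median of 0.08. Past 1.5-fold, 3 were higher and 1 was lower, where 0.227% and 0.159% of all detected genes were, and the list was drawn up with the values of its leading members known. *Irs4*, an insulin receptor substrate of hypothalamic neurons, was at 0.46, *Pomc*, the precursor of melanocortins and beta-endorphin, at 0.41, *Hcrt*, the orexin precursor, at 0.25 and *Ddc*, which makes dopamine and serotonin, at -0.27. *Crh*, which cortical interneurons express as well, was at 0.08. *Sim1*, *Nkx2-1*, *Six6* and *Rax*, transcription factors that mark hypothalamic neurons or their progenitors, were not above background on either contralateral array. Converted to a linear scale and summed, the 19 genes came to 7233 in *P4htm*-/- and 6519 in WT contralateral cortex, and to 6182 in *P4htm*-/- and 6947 in WT ipsilateral cortex. On the ipsilateral side 4 of the 19 were above and 15 below WT. The part that dissected tissue had in these peptide values was not tested, and with 4 mice pooled per array a large value in 1 mouse and a shift in all 4 cannot be told apart.

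Other genes with both arrays above background and a difference past 1.5-fold belonged to several functions. *Me1*, the cytosolic malic enzyme that supplies NADPH for fatty acid synthesis, read 10.03 in *P4htm*-/- and 9.31 in WT contralateral cortex and was 0.51 higher ipsilaterally. Its other detected probe set gave 0.21 on the contralateral side. *Ppp2r3a*, a regulatory subunit of protein phosphatase 2A, read 8.21 in *P4htm*-/- and 7.48 in WT, with -0.10 on its other detected probe set. *Papola*, the poly(A) polymerase of mRNA 3′ ends, read 9.20 in *P4htm*-/- and 8.52 in WT. Its 4 other detected probe sets lay between -0.13 and 0.17. *Trps1*, a GATA-type transcriptional repressor, read 8.80 in *P4htm*-/- and 8.13 in WT, and its others lay between -0.09 and 0.28. For *Ppp2r3a*, *Papola* and *Trps1* the difference was thus a property of 1 probe set. *Slc4a8*, a sodium-driven chloride bicarbonate exchanger of synapses, read 7.08 in *P4htm*-/- and 6.41 in WT, with 0.03 and 0.10 elsewhere in the gene. *Gabrg3*, a gamma subunit of the GABA-A receptor, read 7.45 in *P4htm*-/- and 6.75 in WT, and none of its 3 other probe sets was detected. Ipsilaterally *Ppp2r3a* read 8.34 in *P4htm*-/- and 8.23 in WT, and *Trps1* 8.85 in *P4htm*-/- and 8.70 in WT. *Papola* read 9.28 in *P4htm*-/- and 8.96 in WT there. *Slc4a8* read 7.07 in *P4htm*-/- and 6.82 in WT, and *Gabrg3* 7.43 in *P4htm*-/- and 7.28 in WT. For all these genes and *Me1* the WT contralateral array was thus the lowest of the 4.

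Most of the remaining higher genes were close to background, where scatter is wider. *Hbb-b2*, an adult beta globin of red cells that has near-identical copies, read 6.04 in *P4htm*-/- and 5.06 in WT contralateral cortex. *Tcim*, a small regulator of Wnt signaling, read 5.72 in *P4htm*-/- and 4.95 in WT, and *Cd109*, a glycoprotein that binds TGF-beta, read 5.95 in *P4htm*-/- and 5.22 in WT. *Srp54b*, one of several copies of a signal recognition particle subunit, was at 0.70, and *G530011O06Rik*, a noncoding transcript, at 0.72. *Adm*, which encodes the vasodilator adrenomedullin, was at 0.61 but at -0.22 on its other detected probe set, and *Adm2*, which encodes the related peptide intermedin, was at 0.60. *Mical2*, an oxidase of actin, was at 0.63 with -0.09 on its other detected probe set, and *Col11a2*, a chain of a fibrillar collagen, at 0.59. Of the 30 genes, 10 were above background only in *P4htm*-/- cortex, and for these the measured difference has only a lower bound.

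Among those 10, *S100a9*, a calcium-binding protein of neutrophils, read 5.39 in *P4htm*-/- and 4.28 in WT contralateral cortex and was higher by at least 0.60. *Cd1d1*, a lipid-presenting relative of MHC class I, read 5.61 in *P4htm*-/- and 4.77 in WT and was higher by at least 0.82, while it read 5.13 in *P4htm*-/- and 5.77 in WT ipsilateral cortex. Its difference reversed to -0.13 on the gene's other probe set, which was not detected. *2310034G01Rik* was higher by at least 0.77, *Eps8l1*, an actin regulator whose other, undetected probe set gave -0.09, by at least 0.63, and *Clcf1*, a cytokine of the interleukin-6 family, by at least 0.53. The 2 other probe sets of *Clcf1*, both undetected, gave -0.32 and -0.23, and their mean with the chosen one was 0.02. The bound of *Timp1*, an inhibitor of matrix metalloproteinases, was 0.20, and those of *Prss51*, *Oosp3*, *9330159M07Rik* and *4930426D05Rik* lay between 0.15 and 0.18. The bounds of these 5 genes and of *Clcf1* are below the 1.5-fold limit.

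With 1 probe set standing for each gene, *P4htm* itself was the lowest gene of the comparison. It read 8.27 in *P4htm*-/- and 10.03 in WT contralateral cortex, and 8.23 in *P4htm*-/- and 10.02 in WT ipsilateral cortex. The differences of -1.76 and -1.79 were nearly equal, and the gene's other probe set gave -1.71 and -1.58. Both probe sets still read far above background in *P4htm*-/- cortex, and whether they lie in the part of the gene that was removed was not determined here. The Y-linked genes *Eif2s3y*, *Kdm5d* and *Uty* were above background on every array. Their differences were -0.29, -0.20 and -0.19 contralaterally and -0.47, -0.18 and -0.16 ipsilaterally, and a further, dim probe set of *Eif2s3y* gave -0.74 contralaterally. *Xist*, which females express from the inactive X chromosome, read at most 4.86.

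Of the 51 genes past the limit 8, the targeted *P4htm* itself included, lie on chromosome 9, 1.04% of its 767 detected genes. The share was 0.346% on all other chromosomes together and 1.09% on chromosome 19, where it was largest. Counted in measured genes along the RefSeq order, *Ppm1m* lies 77 genes before *P4htm*, *Mir425* 2 before and *Spink8* 26 after, and all 3 were lower. *Ppp2r3a*, *9330159M07Rik*, *Me1* and *Cd109* lie 110, 181, 196 and 224 genes before it, and all 4 were higher. Between *Ppp2r3a* and *Ppm1m*, a probe set of *Atp2c1* not chosen for the gene read 4.87 in *P4htm*-/- and 6.83 in WT contralateral cortex. Its difference of -1.96 was below that of *P4htm* itself. The chosen probe set of *Atp2c1* was at -0.10 and the other detected ones at -0.01 and -0.16. The gene was thus not counted as past the limit. Within 200 measured genes before and 180 after *P4htm*, 6 of 288 detected genes were past the limit, or 2.08%, and on the rest of the chromosome 0.209% were. Genes next to a targeted locus can keep the alleles of the embryonic stem cells through backcrossing, and the arrays hold no genotype of this region, so an effect of the missing gene and one of linked alleles cannot be told apart here.

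*Spink8*, a Kazal-type inhibitor of serine peptidases that marks pyramidal neurons of hippocampal CA1, read 5.23 in *P4htm*-/- and 6.31 in WT contralateral cortex, and 5.49 in *P4htm*-/- and 6.51 in WT ipsilateral cortex. *Ppm1m*, a PP2C-type serine and threonine phosphatase, read 8.47 in *P4htm*-/- and 9.21 in WT contralateral cortex, and 8.46 in *P4htm*-/- and 9.09 in WT ipsilateral cortex. Both *P4htm*-/- arrays were below both WT arrays for each gene. The arrays of a genotype hold tissue of the same mice and are not replicates, and the share of all genes ordered this way was not counted. Apart from *P4htm*, *Spink8* and *Ppm1m* were the only genes lower past 1.5-fold on both sides. *Wdr6*, a WD-repeat protein of tRNA modification that adjoins *P4htm*, read 11.57 in *P4htm*-/- and 11.98 in WT contralateral cortex, a difference of -0.41, but only -0.10 ipsilaterally. On the other flank *Arih2*, a ubiquitin ligase, was at 0.05, and its 4 other detected probe sets gave -0.58, -0.16, -0.06 and 0.17. The probe set that the annotation pairs with *Mir425*, which on an array of polyadenylated RNA cannot be read as the mature microRNA, was lower, with a bound of -0.46. Of the 20 measured genes nearest to *P4htm*, all detected, that probe set alone was past the limit, and the other 19 lay between -0.41 for *Wdr6* and 0.38 for *Col7a1*, a collagen of anchoring fibrils that was near background.

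**Figure D2:**
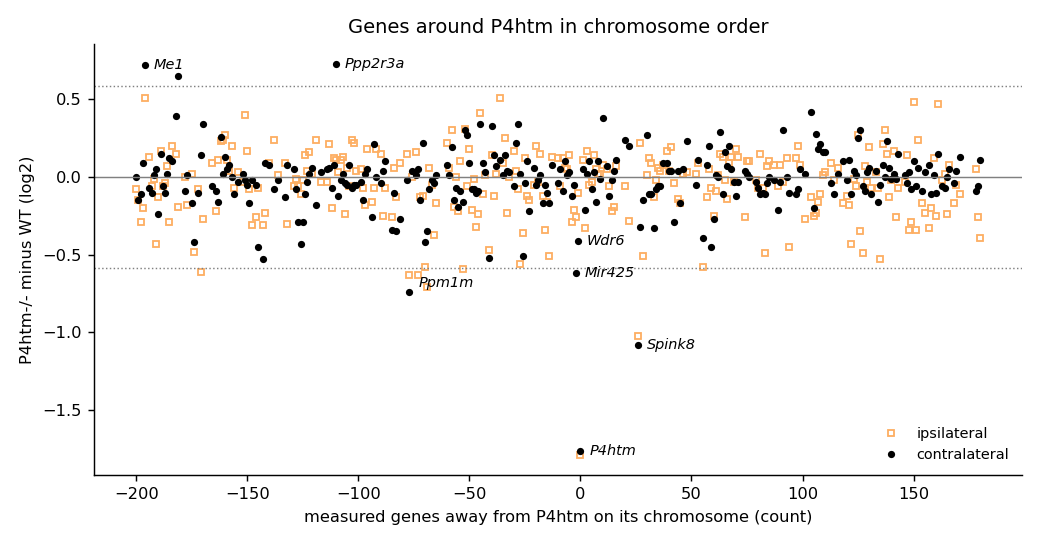
KO minus WT log2 difference (vertical axis) of the detected genes around *P4htm*, placed by their count of measured genes from it along chromosome 9 (horizontal axis), for contralateral (filled black circles) and ipsilateral cortex (open orange squares). Dotted lines mark 1.5-fold. *P4htm* at -1.76, *Spink8* at -1.08 and *Ppm1m* at -0.74 stand below the lower line, with *Spink8* and *P4htm* nearly the same on both sides.

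The other lower genes were spread over the genome and were mostly dim. *Emcn*, endomucin of capillary and venous endothelium, read 5.58 in *P4htm*-/- and 6.36 in WT contralateral cortex, and 6.04 in *P4htm*-/- and 6.16 in WT ipsilateral cortex. *Slc31a1*, the high-affinity copper importer, read 5.70 in *P4htm*-/- and 6.46 in WT contralateral cortex, and 6.35 in *P4htm*-/- and 6.39 in WT ipsilateral cortex, with -0.23 on its other probe set contralaterally. In both genes the *P4htm*-/- contralateral array was the lowest of the 4. *Prokr2*, a receptor for prokineticins, read 4.96 in *P4htm*-/- and 5.69 in WT, with -0.18 on its other probe set. *Qrfpr*, the receptor of the peptide QRFP, was at -0.65, *Ccl4*, a chemokine of activated microglia and macrophages, at -0.64, *Katnal2*, a katanin-like microtubule severing protein, at -0.64 and *Tex52*, a testis-expressed gene, at -0.78. *AU020206* was at -0.68, and *Gm2115* at -0.66 with 0.04 on its other detected probe set. Of the 21, 8 were not above background in *P4htm*-/- cortex, and all 8 bounds were smaller than the 1.5-fold limit. The bound of *Ndst3*, an enzyme that places sulfate on heparan sulfate, was -0.54 and that of *Tlr2*, a receptor for bacterial lipoproteins, -0.50, while *Ndst3* read 0.27 above WT on its other probe set, which was not detected. The bounds of *Gm32960* and *Myl2*, a myosin light chain, were -0.41 and -0.33, and those of *Tnmd*, *Lcn2* and *Cnmd* were -0.19, -0.10 and -0.04. *Tnmd* and *Cnmd* encode the related cartilage and tendon proteins tenomodulin and chondromodulin.

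**Figure D3:**
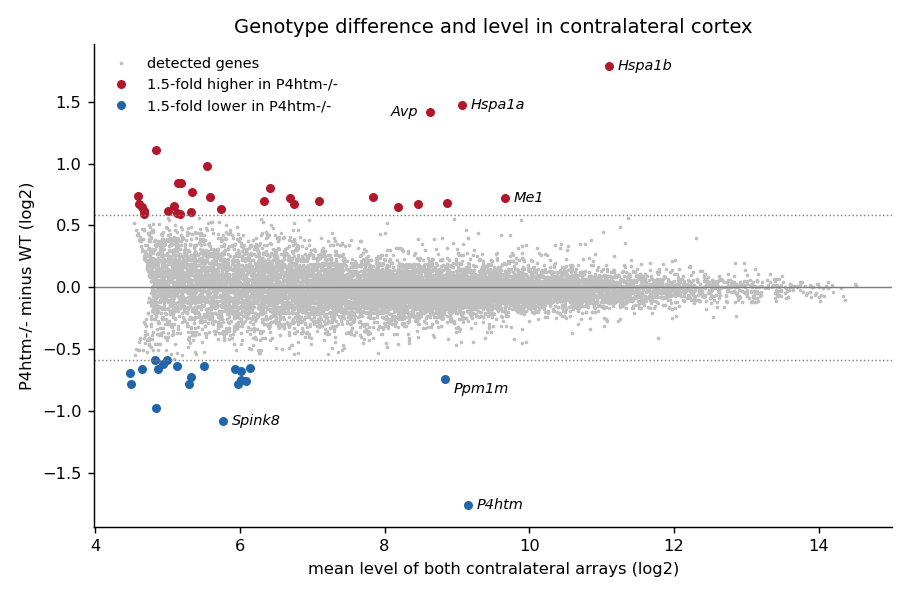
KO minus WT log2 difference in contralateral cortex (vertical axis) against the mean log2 level of both contralateral arrays (horizontal axis) for 13207 detected genes, with the 30 genes at least 1.5-fold higher in *P4htm*-/- in red and the 21 lower in blue. Dotted lines mark 1.5-fold. The scatter is widest below a level of 6, where 32 of the 51 genes lie.

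The share of genes past the limit depended on their level. Of 2146 detected genes with a mean contralateral level under 6, 32 were past 1.5-fold, or 1.49%, and their differences had an SD over genes of 0.224. From 6 to 8 the share was 0.252% of 3967 genes, from 8 to 10 it was 0.171% of 4670 genes, and from 10 upward it was 0.0413% of 2424 genes, namely *Hspa1b*. The SD over genes was 0.092 in that last range. Second probe sets gave little backing, since 12 of the 51 genes had another detected probe set. All such probe sets had the sign of the chosen one in 6 of the 12 genes, and they were past 1.5-fold the same way in 2, *Hspa1b* and *P4htm*. For 30 of the 51 the array held a single probe set.

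Whether the same genes differed in the injured hemisphere was asked on the ipsilateral arrays, which share no hybridization with the contralateral ones but hold tissue of the same mice. Of the 30 higher genes 21 were also above WT ipsilaterally and their median there was 0.15. The 21 lower genes had an ipsilateral median of -0.16, and 14 of them were below WT. Of the genes detected on both sides 12620 had a contralateral difference other than 0, and 52.9% of these had the same sign on both sides. The share with the same sign was 50.7% among genes that differed contralaterally by 0.01 to 0.10, 55.3% from 0.11 to 0.30, 62.3% from 0.31 to 0.58 and 67.4% at 1.5-fold and over, where 31 of 46 genes detected on both sides had it. Past 1.5-fold in the same direction on both sides were *Hspa1b* and *Hspa1a* among the higher genes, and *P4htm*, *Spink8* and *Ppm1m* among the lower. *Cd1d1* and *Pmch* were past 1.5-fold in opposite directions. On the ipsilateral side 12 of 13363 detected genes were higher (0.0898%) and 77 lower (0.576%), 0.666% in both directions. The contralateral split of 30 higher and 21 lower genes depended on the settings. It evened out to 16 higher and 16 lower for the mean of a gene's probe sets, and to 25 higher and 24 lower after cyclic loess. Under the other settings more genes were higher than lower, such as 20 against 13 with both arrays above background and 27 against 22 after median centering. No difference in direction between the sides was tested.

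**Figure D4:**
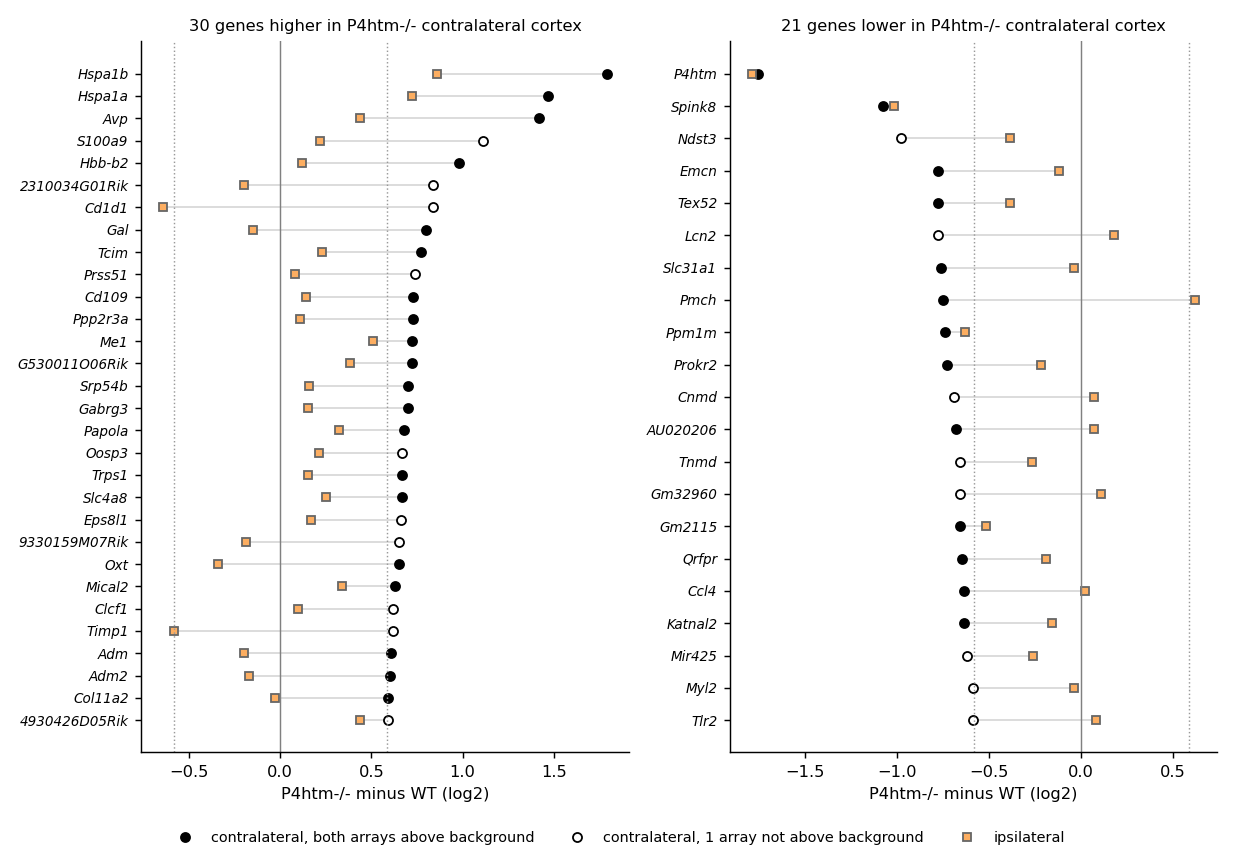
KO minus WT log2 difference (horizontal axis) of the 30 genes higher (left) and the 21 genes lower (right) in *P4htm*-/- contralateral cortex, with the contralateral difference as a circle, open where 1 array was not above background, and the ipsilateral difference as an orange square. Dotted lines mark 1.5-fold. *Hspa1b*, *Hspa1a*, *P4htm*, *Spink8* and *Ppm1m* have both symbols outside the dotted lines on the same side, while *Cd1d1* and *Pmch* have them on opposite sides.

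A total of 50 gene lists was then set beside all detected genes, of which 43.1% were above and 53.1% below WT. In 44 of the 50 lists the median lay between -0.1 and 0.1, and in 36 no member was past 1.5-fold. The medians of 3 lists were above 0.1 and those of 3 were below -0.1. These counts describe 1 array per genotype, and genes of a list share their arrays and are not independent.

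Genes that respond to glucocorticoids had the highest median among lists with more than 10 detected genes. All 23 were detected, 18 were above and 5 below WT, and their median was 0.16. *Zbtb16*, a zinc finger repressor that is strongly induced by glucocorticoids, read 9.24 in *P4htm*-/- and 8.69 in WT contralateral cortex, and 9.18 in *P4htm*-/- and 8.74 in WT ipsilateral cortex. Both *P4htm*-/- arrays, which hold tissue of the same mice, were above both WT arrays for *Zbtb16*. Its other detected probe sets gave 0.22 and 0.65 contralaterally. *Cdkn1a*, the cell cycle inhibitor p21, read 9.13 in *P4htm*-/- and 8.77 in WT, and *Per1*, a clock gene with a glucocorticoid response element, 9.26 in *P4htm*-/- and 8.91 in WT. *Fkbp5*, a cochaperone that lowers the affinity of the receptor for its hormone, and *Sgk1*, a kinase, were both at 0.22, and *Tsc22d3*, also called GILZ, at 0.20. None of these reached 1.5-fold, and the 1 member that did was *Lcn2*, which was lower and near background. *Nr3c1*, the receptor itself, was at -0.21, and its 5 other detected probe sets lay between -0.28 and 0.60. Ipsilaterally 18 of the 23 were above and 4 below WT, with a median of 0.09.

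Activity-induced and clock genes leaned the same way by smaller amounts. Of 42 detected immediate early and activity-induced genes 28 were above and 10 below WT, with a median of 0.06 and no gene past 1.5-fold. *Fos* read 10.15 in *P4htm*-/- and 9.61 in WT contralateral cortex, *Arc*, which controls AMPA receptor traffic, 9.36 in *P4htm*-/- and 8.96 in WT, and *Egr1* 13.05 in *P4htm*-/- and 12.91 in WT. *Klf2* was lowest at -0.22. Of 22 detected clock genes 14 were above and 6 below WT, with a median of 0.09, from *Per1* at 0.35 and *Nfil3*, a repressor of *Per* genes, at 0.29 to *Dbp* at -0.12 and *Per2* at -0.32. Some genes, such as *Per1*, are in more than 1 of these lists. The medians of the same lists were 0.17 for both activity-induced and clock genes on the ipsilateral side. The sources used here do not give the time of day of dissection.

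The oxygen-sensing system showed no shared direction. Of 26 HIF hydroxylases, relatives and HIF subunits 25 were detected, with a median of 0.00 and none past 1.5-fold. This list leaves out *P4htm*. *Hif1a* read 9.94 in *P4htm*-/- and 10.14 in WT contralateral cortex, a difference of -0.20, with -0.10 and -0.02 on its other detected probe sets. *Epas1*, which encodes HIF2 alpha, was at -0.11, and *Egln1*, *Egln2* and *Egln3*, the HIF prolyl 4-hydroxylases, were at -0.14, 0.04 and -0.06. Of 40 detected HIF targets and glycolytic genes 13 were above and 25 below WT, with a median of -0.04, and *Adm* alone was past 1.5-fold. *Hmox1*, heme oxygenase 1, was at 0.43 and *Car12*, a carbonic anhydrase, at -0.32. *Vegfa*, the main angiogenic growth factor, read 7.82 in *P4htm*-/- and 7.80 in WT, *Bnip3*, a mitochondrial autophagy receptor, was at 0.12, and *Slc2a1*, the glucose transporter of brain endothelium, at 0.18 with 0.19 and 0.33 on its other probe sets. The erythropoietin receptor gene *Epor* was at -0.10. In replicate mice the study found by qRT-PCR lower *Vegfa* mRNA in *P4htm*-/- cortex of both hemispheres and higher contralateral *Bnip3* mRNA. For *Epor* it reported more mRNA in untreated *P4htm*-/- cortex and no significant difference after MCAO. The contralateral *Vegfa* values here, from 1 pooled array per genotype, did not show a decrease, while *Bnip3* was above WT. Ipsilaterally *Vegfa* was at -0.18.

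On these arrays the mRNA of junction, complement and kinase genes was also close to level. For the kinases the study measured phosphorylated protein against total kinase, and reported higher activation in noninjured *P4htm*-/- cortex after MCAO. For C1q it measured protein in naive mice and found less in *P4htm*-/- mice. Neither is a measure of mRNA. From its arrays, by gene set enrichment analysis, the study reported tight junction genes as a set downregulated in noninjured *P4htm*-/- cortex. That analysis scored a different gene set as a whole, was not repeated here and is unlike a count past 1.5-fold. None of 31 detected tight and adherens junction genes was past 1.5-fold and their median was -0.01. *Ocln*, occludin, read 7.06 in *P4htm*-/- and 7.31 in WT contralateral cortex, and its 2 probe sets disagreed, with -0.25 and 0.07. *Tjp1*, which encodes the scaffold ZO-1, was at -0.05 and *Cldn5*, the main claudin of brain endothelium, at 0.07. By qRT-PCR with replicate mice the study found *Ocln* mRNA significantly lower in *P4htm*-/- contralateral cortex, with a trend to lower *Cldn5*. It also reported less occludin protein in unoperated *P4htm*-/- mice. The C1q chain genes *C1qa*, *C1qb* and *C1qc* were at -0.09, -0.13 and 0.01. Of 17 detected complement genes 12 were below WT, with a median of -0.09, from *Cfp*, properdin, at 0.43 to *Cd55*, a decay-accelerating factor, at -0.37. None of 56 detected MAP kinase genes was past 1.5-fold and their median was 0.01. *Braf* was at 0.33 and *Dusp1*, a phosphatase of MAP kinases that is induced by stress, at 0.30, while *Araf* was at -0.39. *Il6*, *Tnf* and *Ccl2* were not above background on either contralateral array, and *Il1b* was above it in *P4htm*-/- cortex only, at 4.94 against 4.66 in WT.

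**Figure D5:**
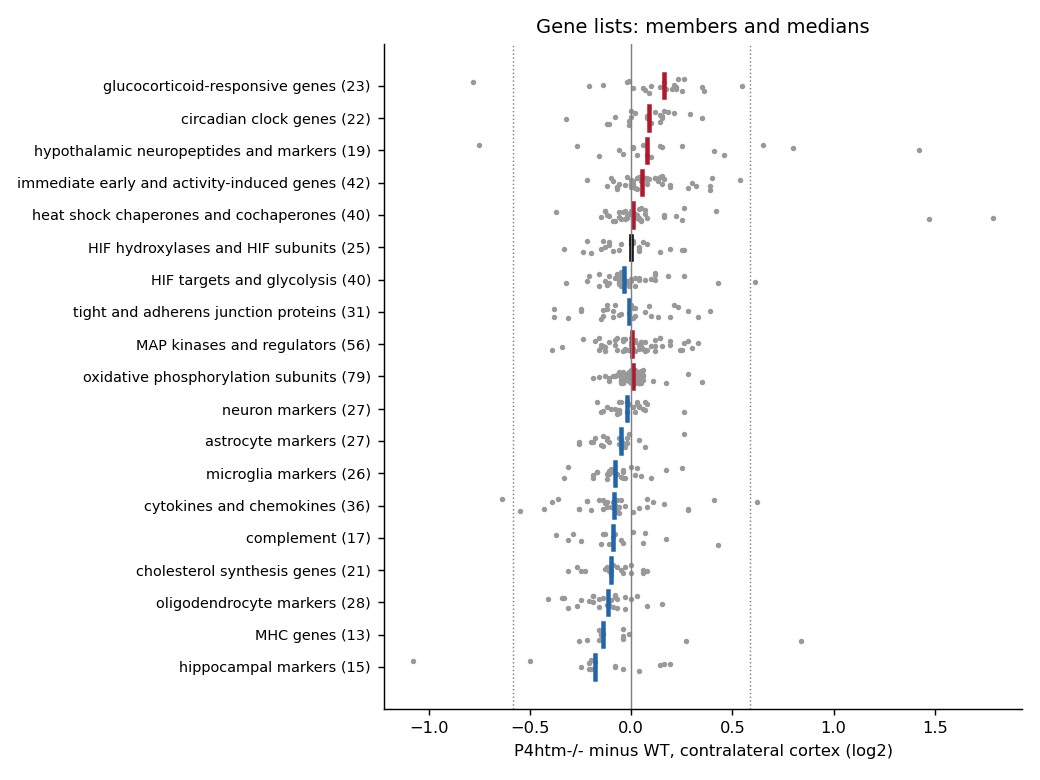
KO minus WT log2 difference in contralateral cortex (horizontal axis) of the detected members (grey points, number in brackets, scattered vertically for sight only) of 19 gene lists, with a bar at each list's median. Dotted lines mark 1.5-fold. The medians run from 0.16 for glucocorticoid-responsive genes to -0.18 for hippocampal markers.

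Markers of glial cells were mostly slightly below WT in *P4htm*-/- cortex. Of 28 oligodendrocyte markers, all detected, 24 were below and 3 above WT, with a median of -0.12, and their summed linear level was 51791 in *P4htm*-/- and 56031 in WT contralateral cortex. *Opalin*, a myelin membrane protein, read 8.14 in *P4htm*-/- and 8.55 in WT, *Mog* was at -0.34, *Mal* at -0.25 and *Mbp*, myelin basic protein, at -0.07. Ipsilaterally 27 of the 28 were below WT. Of 27 astrocyte markers 24 were below WT, though the median was only -0.05, with *Slc14a1*, a urea transporter, at -0.26, *Cbs*, which makes cystathionine, at 0.26 and *Gfap* at 0.07. Of 26 microglia markers 19 were below WT, with a median of -0.08, from *P2ry6* at 0.25 to *Laptm5* at -0.33. *Itgam*, which encodes CD11b, was at -0.25 and *Fcgr3* at 0.02. None of these genes was past 1.5-fold. Of 27 neuron markers 11 were above and 16 below WT, with a median of -0.02. Of 30 detected endothelial markers 11 were above and 17 below WT, with a median of -0.04, and *Emcn* was the one past 1.5-fold. *Tek*, the angiopoietin receptor, was at -0.40 and *Icam1*, an adhesion molecule for leukocytes, at 0.49.

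Markers of neighboring regions were checked because the samples were dissected whole cortexes. Of 15 detected hippocampal markers 11 were below WT, with a median of -0.18. It was -0.11 over all 19 measured and -0.088 with the mean of a gene's probe sets. *Spink8* was the single one past 1.5-fold, *Fibcd1*, a marker of CA1, read 5.90 in *P4htm*-/- and 6.40 in WT contralateral cortex, a difference of -0.50, and *Wfs1*, which marks CA1 and also cortical layer neurons, was at -0.20. *Fibcd1* was 0.20 above WT on the ipsilateral side, where *Spink8* was at -1.02. The summed linear level of the 15 markers was 5536 in *P4htm*-/- and 5885 in WT contralateral cortex. Of 20 striatal markers 14 were below WT, with a median of -0.07, and *Scn4b*, a sodium channel subunit, was lowest at -0.30 together with *Slc35d3*. Of 15 detected thalamic and habenular markers 9 were below WT, with a median of -0.06. Their part in the results on single genes was not tested.

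Blood and immune genes gave no common picture. Of 9 detected neutrophil markers 4 were above and 5 below WT, with *S100a9* higher, *Lcn2* lower and *S100a8* at 0.56, and their summed linear level was 366 in *P4htm*-/- and 346 in WT contralateral cortex. Of 16 measured erythroid and hemoglobin genes 3 were detected, and *Hbb-b2* was the one past 1.5-fold, while their summed linear level was 911 in *P4htm*-/- and 947 in WT contralateral cortex. All 6 detected lymphocyte markers were above WT, among them *Cd8a* at 0.47, *Zap70* at 0.28 and *Ighm* at 0.13, but 13 of the 19 measured were not detected and the median over all 19 was 0.03. Of 13 detected MHC genes 11 were below WT, with a median of -0.14. It was -0.05 over all 16 measured and -0.007 with the mean of a gene's probe sets, so the shift of this list depended on the probe set rule. *B2m*, the light chain of class I, was at -0.26 and *H2-Aa* at -0.22, while *Cd1d1* at 0.84 and *Cd74*, the invariant chain of class II, at 0.27 were above WT. Of 36 detected cytokines and chemokines 26 were below WT, with a median of -0.09. *Il12a* was at -0.55 and *Cxcl16* at 0.41. Among 25 detected reactive astrocyte genes 3 were higher, *Cd109*, *Clcf1* and *Timp1*, and 1 was lower, *Lcn2*, each with a mean level under 6. Past 1.5-fold were 0.386% of all detected genes and 1.49% of those under that level. *Clcf1* and *Timp1* were above background in *P4htm*-/- contralateral cortex only and *Lcn2* in WT only.

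Genes of neuronal excitability and of basic metabolism were close to level. Of 21 detected glutamate receptor subunits none was past 1.5-fold and the median was 0.02. Of 10 detected GABA receptor subunits 8 were below WT, with a median of -0.06, *Gabra2* at -0.19 and *Gabrd* at -0.16, and *Gabrg3* was 1 of the 2 above WT. The 63 detected voltage-gated channels had a median of -0.01, from *Hcn3*, a pacemaker channel, at 0.45 to *Scn4b*. Among 44 detected genes of calcium stores and signaling, with a median of -0.01, *Atp2b4*, a calcium pump of the plasma membrane, was highest at 0.53. Of 21 genes of cholesterol synthesis, all detected, 16 were below and 3 above WT, with a median of -0.10, *Srebf2*, the transcription factor of the pathway, at -0.31 and *Fdps* at -0.27. The medians of 79 oxidative phosphorylation subunits, 43 cytosolic ribosomal proteins, 76 mitochondrial ribosomal proteins and 40 proteasome genes were 0.01, 0.02, 0.01 and 0.00. On the ipsilateral side the same 4 lists had medians of -0.23, -0.24, -0.25 and -0.22.

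RNA control probe sets differed between the contralateral arrays. The 5′ minus 3′ difference of *Gapdh* was -1.33 in *P4htm*-/- and -0.94 in WT contralateral cortex, and that of *Actb* was -1.97 in *P4htm*-/- and -1.67 in WT. On the ipsilateral arrays it was -1.16 in *P4htm*-/- and -1.10 in WT cortex for *Gapdh*, and -1.78 in *P4htm*-/- and -1.73 in WT cortex for *Actb*. The *P4htm*-/- contralateral array thus had the widest gap of the 4 for both controls, and its part in the differences of single genes was not tested. When genes were split into 5 equal groups by their genomic span, the contralateral median was 0.00 for the shortest group and -0.02 for the longest. The ipsilateral median was -0.08 for the shortest group and 0.07 for the longest. The part of span in the ipsilateral values given here was not tested.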

How the data were processed

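The deposited values were RMA expression values made by the authors from Affymetrix Mouse Genome 430 2.0 arrays, with GenePattern named in the submitters' processing notes. RMA subtracts background, applies quantile normalization and summarizes the probes of a set, so array medians are made nearly equal. Neither the version nor the log base is stated in the sources used here. The deposited range of 2.51 to 14.9 was read as log2. Each array held RNA pooled from 4 mice, and the design has 1 array per genotype and side. No deposited column was left unused (0), and no column of comparisons by the authors was used.

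Of 45101 probe sets 34958 name 1 gene, 932 several and 9211 none, and 34754 were matched to current symbols by Entrez ID. The probe set with the highest mean over the 4 arrays stood for its gene. Background was the 95th percentile (4.79) of 81 olfactory, vomeronasal and taste receptor probe sets, and a gene was detected when at least 1 of the 2 arrays compared exceeded it. Differences are *P4htm*-/- minus WT. Where 1 array was not above background, the bound sets it at the lowest level above background. Summed levels are sums of 2 to the power of the log2 value. The genes named are *P4htm*, sex-linked genes, the 20 highest and 20 lowest genes past 1.5-fold, the extremes and most abundant members of the lists, genes the study measured and the 10 genes on either side of *P4htm*. The remaining genes past 1.5-fold (ranks beyond 20) and some members of lists were named after their values were seen. The members and the 50 lists were chosen with earlier results of these data known. Alternatives changed the probe set rule, detection, background percentile (90th and 99th), fold limit, centering and normalization. Python 3.11.15, numpy 2.4.6, pandas 2.3.3, matplotlib 3.10.9, R 4.3.3 and limma 3.58.1 (cyclic loess) were used. Promoter windows came from RefSeq. Some HIF targets are not analysed here.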

Additional observations from a re-analysis of the deposited data

Results flagged for a closer look

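*Cd1d1* and *Pmch* differed by at least 1.5-fold in opposite directions in the 2 hemispheres. *Cd1d1* was at 0.84 contralaterally and at -0.64 ipsilaterally, and *Pmch* at -0.75 contralaterally and at 0.62 ipsilaterally. With 1 array per genotype and side this difference between the sides was not tested.

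Probe sets without a single gene name were outside the comparison of genes. Leaving out 51 control probe sets of the array, 10092 remained, of which 3795 were detected on the contralateral side. Of those, 32 were higher and 47 lower in *P4htm*-/- cortex, 2.08% of those detected, against 0.386% of the detected genes. On the ipsilateral side 26 of the 32 and 27 of the 47 had the same sign. Among genes detected on both sides with a contralateral difference other than 0, 52.9% had it. The differences ran between 1.39 and -0.98.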

How the results depend on the processing

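The main counts were 30 genes higher, 21 lower and 35 with the same sign ipsilaterally. With the mean of all probe sets of a gene, 16 were higher and 16 lower, the 16 higher ones all among the 30, and 18 had the same sign. Without a detection filter 53 were higher and 29 lower. With both arrays required above background 20 were higher and 13 lower. With background at the 99th percentile 13 were higher, 2 lower and 13 of the same sign, and with a 2-fold limit these counts were 4, 2 and 6. Leaving out probe sets whose names end in _x_at, _s_at or _a_at reversed *Cd1d1* to -0.13, *Eps8l1* to -0.09, *Adm* to -0.22 and *Ndst3* to 0.27, where another probe set then stood for the gene. Median centering gave 27 higher and 22 lower, and cyclic loess 25 higher and 24 lower. Under both, all 51 genes kept their direction. Several list medians shrank under an alternative, and some changed sign, among them those of neutrophil markers and of erythroid and hemoglobin genes. Medians close to 0 in the main setting changed sign as well. That of reactive astrocyte genes went from 0.04 down to -0.033, and that of HIF targets and glycolysis from -0.035 up to 0.013. The erythroid median was 0.21 in the main setting and ran down to -0.04. Averaging the probe sets of each gene gave -0.007 for MHC genes, -0.088 for hippocampal, 0.075 for lymphocyte and -0.04 for microglia markers, and over all measured members 0.03 for lymphocyte markers, 0.18 for neutrophil markers (-0.04 over detected ones), -0.045 for complement genes and -0.04 for cytokines. The glucocorticoid median lay between 0.14 and 0.182, and the oligodendrocyte median between -0.135 and -0.10, under every setting tried.

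No paired analysis was possible because each genotype and side has 1 array and the labels carry no replicate numbers that pair them. Signal near background limits the precision, since 32 of the 51 genes had a mean level under 6, and pooling leaves the spread between mice unknown.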
